A study of Mus musculus with 6 samples.

Results

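The Cyp2c genes encode cytochrome P450 enzymes, and their RNA was examined here in mouse livers with and without a guide RNA against the peroxidase gene Prdx2. The members were the 10 rows of the count table with the symbols Cyp2c29, Cyp2c37, Cyp2c38, Cyp2c39, Cyp2c40, Cyp2c44, Cyp2c50, Cyp2c54, Cyp2c55 and Cyp2c70, of 52459 genes in all. The family was taken up because Cyp2c54 had been noticed for its rise in sgPrdx2 livers, so the family was chosen by the measured group difference of Cyp2c54 and by gene symbol, and that difference is given as a description and without a test. All 10 members passed the filter on low counts, as did 17032 genes in all.

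RNA came from whole livers of 6 male C57BL6J mice of the Alb-Cre/Cas9 F1 generation, aged 8 months. All of them carried the Cas9 transgene and Cre under the albumin promoter, which is active in hepatocytes. They received an AAV8 vector at 4 to 5 weeks of age, the carcinogen diethylnitrosamine (DEN, 100 mg/kg) 3 weeks after it, and then a choline-deficient high-fat diet (CDAHFD) for 6 months. The guide RNA carried by the vector was a control in 3 mice, named sgCtrl 5.1, 7.1 and 7.2. It targeted Prdx2 in the remaining 3, named sgPrdx2 1.1, 1.3 and 3.2. Prdx2 was thus targeted in transduced hepatocytes alone, and livers without DEN and without the diet were not analysed here. Total counts ranged from 37462102 to 56865293 per liver. Levels are given as normalized CPM, counts scaled to library size by edgeR's trimmed mean of M-values (TMM), and 3 counts in a liver, taken as the floor of detection, corresponded to between 0.0555 and 0.0921 normalized CPM, a limit that allows for counting error alone.

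Cytochromes P450 of this family are heme enzymes of the endoplasmic reticulum that insert oxygen into drugs, steroids and fatty acids, with electrons that NADPH supplies through the reductase Por. Many of the mouse Cyp2c enzymes turn arachidonic acid into epoxides or hydroxylated products. Hepatocytes are the main site of their expression, where nuclear receptors such as CAR (Nr1i3), PXR (Nr1i2) and HNF4α (Hnf4a) are known to act on Cyp2c genes.

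In the mouse genome (GRCm38, GENCODE annotation), 9 of the 10 members lay in 1 cluster on chromosome 19, chr19:39007019-40187333, which spans 1180.3 kb from Cyp2c55 to Cyp2c70. Within it Cyp2c54 (chr19:40037940-40073827, minus strand) and Cyp2c50 (chr19:40089688-40113950, plus strand) stand head to head, with 15.9 kb between their starts. Cyp2c44, whose annotated symbol is Cyp2c23, lies apart at chr19:44005022-44029208, and its start is 3955.4 kb from that of Cyp2c54. Among the members, Cyp2c54, Cyp2c50 and Cyp2c37 have closely similar coding sequences, as do Cyp2c38 and Cyp2c39. Cyp2c54 was identical to Cyp2c50 at 95.2% and to Cyp2c37 at 95.1% of aligned coding bases, Cyp2c37 to Cyp2c50 at 96.1%, and Cyp2c38 to Cyp2c39 at 94.2%. By contrast Cyp2c54 matched Cyp2c29 at 82.2%, Cyp2c70 at 68.0% and Cyp2c44 at 63.1% of aligned bases. Cyp2c54 matched Cyp2c55 at 75.4%. The first 60 coding bases, which encode the start of the membrane anchor, are shown for a view of how the members differ. They are printed from the start codon, with capitals at the bases that differ from Cyp2c54.
Cyp2c54: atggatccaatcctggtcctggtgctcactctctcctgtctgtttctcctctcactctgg
Cyp2c37: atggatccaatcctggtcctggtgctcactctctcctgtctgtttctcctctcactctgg
Cyp2c50: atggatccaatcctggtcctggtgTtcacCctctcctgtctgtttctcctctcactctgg
Cyp2c55: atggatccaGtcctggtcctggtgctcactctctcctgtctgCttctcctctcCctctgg
Cyp2c29: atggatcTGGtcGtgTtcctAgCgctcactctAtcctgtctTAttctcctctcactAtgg
Cyp2c38: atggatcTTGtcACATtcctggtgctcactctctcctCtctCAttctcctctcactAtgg
Cyp2c70: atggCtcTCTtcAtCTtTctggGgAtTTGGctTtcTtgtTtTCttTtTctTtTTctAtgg
Cyp2c44: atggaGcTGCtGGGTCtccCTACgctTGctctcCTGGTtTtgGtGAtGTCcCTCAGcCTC

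Over these 60 bases Cyp2c37 had 0 differences from Cyp2c54, Cyp2c50 had 2, Cyp2c55 had 3, Cyp2c29 and Cyp2c38 had 11 each, Cyp2c70 had 25 and Cyp2c44 had 35. Cyp2c55 was thus closer to Cyp2c54 than Cyp2c29 was in this stretch, but not over the whole coding sequence. On GRCm38 the printed stretches are chr19:40073752-40073811 (minus strand) for Cyp2c54, chr19:39992440-39992499 (plus strand) for Cyp2c37, chr19:40089700-40089759 (plus strand) for Cyp2c50, chr19:39007046-39007105 (plus strand) for Cyp2c55, chr19:39287118-39287177 (plus strand) for Cyp2c29, chr19:39462995-39463054 (minus strand) for Cyp2c38, chr19:40187203-40187262 (minus strand) for Cyp2c70 and chr19:44029128-44029187 (minus strand) for Cyp2c44, all in the first coding exon.

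The likeness of the genes bears on how reads could be counted. The longest identical run of Cyp2c54 and Cyp2c50 measures 198 bases and covers coding bases 387 to 584 of both. It is printed because a read that falls within it fits both genes equally well.
Cyp2c54 and Cyp2c50: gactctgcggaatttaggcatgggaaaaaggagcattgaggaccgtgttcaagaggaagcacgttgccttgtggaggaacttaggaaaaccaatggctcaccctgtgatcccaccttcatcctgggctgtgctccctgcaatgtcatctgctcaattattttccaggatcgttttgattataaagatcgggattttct

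Transcripts were cut into all their stretches of 50 bases to see how much of each gene occurs in another gene. For Cyp2c54 25.7% of stretches occurred elsewhere, 17.5% in Cyp2c50 and 16.0% in Cyp2c37. The shares were 30.7% for Cyp2c50, 30.1% for Cyp2c37, 12.1% for Cyp2c39, 7.45% for Cyp2c38, 2.08% for Cyp2c29 and 1.13% for Cyp2c55. Cyp2c44 and Cyp2c70 shared none of their stretches at this length with any other gene. Cyp2c40 shared 72.1%, mainly with Cyp2c67, Cyp2c68 and Cyp2c69, so its values are uncertain. How the authors' counting treated reads that fit several genes is not given in the sources used here, and the values of Cyp2c37, Cyp2c50 and Cyp2c54 are uncertain to that extent.

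**Figure D1:**
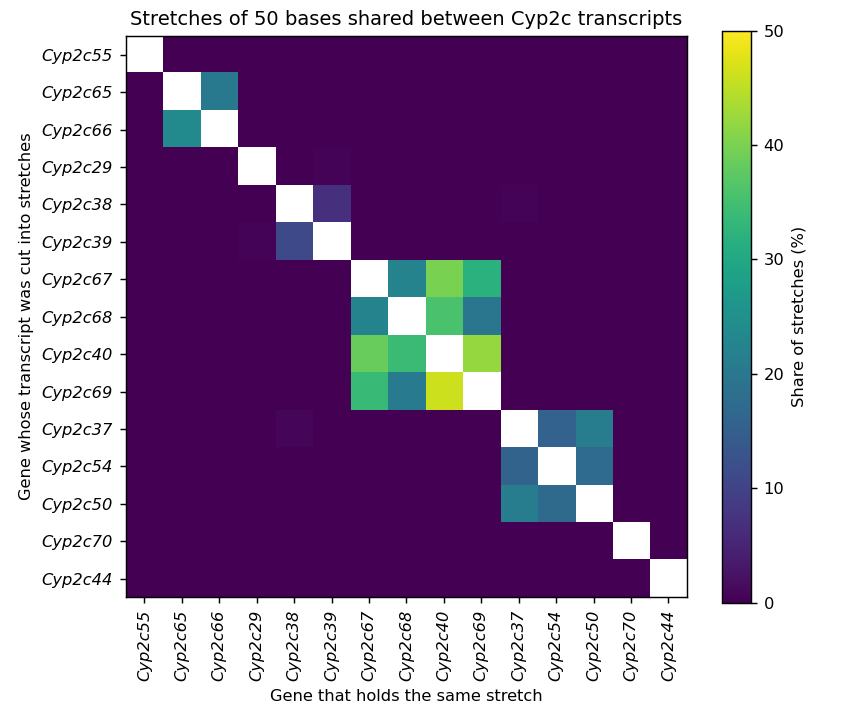
Share (%) of the stretches of 50 bases in the principal transcript of each Cyp2c gene (rows) that also occur in a transcript of another Cyp2c gene (columns), with genes in chromosome order and the diagonal left blank. The color scale runs from 0 to 50%, and the sharing falls into separate blocks, with Cyp2c37, Cyp2c50 and Cyp2c54 in 1 of them and Cyp2c40, Cyp2c67, Cyp2c68 and Cyp2c69 in another.

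Prdx2 was looked at first, as the targeted gene. It had 109, 117 and 132 normalized CPM in sgCtrl livers 5.1, 7.1 and 7.2 and 99.0, 112 and 149 normalized CPM in sgPrdx2 livers 1.1, 1.3 and 3.2. The groups overlapped, and the log2 fold change was 0.01 ± 0.18 (SE, n = 3 per group; edgeR quasi-likelihood test, Benjamini-Hochberg adjusted p = 0.983). Scaled to hepatocyte markers (described with the cell types), it was lower by the same test, at -0.90 with an adjusted p of 0.00297, where the median of all genes was -0.91 and 74.4% of all genes were called lower. A cut by Cas9 can leave RNA in place, so this RNA neither checks the labels nor measures the protein.

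Cyp2c54, an epoxygenase of arachidonic and linoleic acid, was the member with the largest difference. It had 15.9, 40.3 and 8.88 normalized CPM in sgCtrl livers 5.1, 7.1 and 7.2 and 148, 95.1 and 102 normalized CPM in sgPrdx2 livers 1.1, 1.3 and 3.2, from 467 to 1813 counts and from 3320 to 6486 counts. Every sgPrdx2 liver lay above every sgCtrl liver, and the control livers differed among themselves by 4.54-fold. The log2 fold change was 2.41 ± 0.51 (SE, n = 3 per group), or 5.30-fold, and it chose the family, so no test is given. Without control liver 7.1, the highest of the controls, the log2 fold change was 3.22.

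Cyp2c50, the head-to-head neighbor of Cyp2c54 and an epoxygenase as well, had 187, 323 and 105 normalized CPM in sgCtrl livers 5.1, 7.1 and 7.2 and 753, 549 and 597 in sgPrdx2 livers 1.1, 1.3 and 3.2. The groups did not overlap, and control liver 7.1 stood highest of the controls, as it did for Cyp2c54. The log2 fold change was 1.63 ± 0.37 (SE, n = 3 per group) and missed the threshold (edgeR quasi-likelihood test, Benjamini-Hochberg adjusted p = 0.057). For every 100 normalized CPM of Cyp2c50 there were 8.49, 12.5 and 8.49 of Cyp2c54 in sgCtrl livers and 19.6, 17.3 and 17.1 in sgPrdx2 livers, with no overlap. Cyp2c54 thus differed by more than its neighbor in the same libraries, a comparison that rests on Cyp2c54 and is a description.

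Cyp2c44, the distant member known as an arachidonic acid epoxygenase of kidney and liver, had 133, 238 and 117 normalized CPM in sgCtrl livers 5.1, 7.1 and 7.2 and 477, 329 and 397 in sgPrdx2 livers 1.1, 1.3 and 3.2. Again liver 7.1 was the highest control, and the groups did not overlap. The difference was 2.46-fold, with an SE of 0.29 on the log2 scale (n = 3 per group), and the edgeR quasi-likelihood test and Benjamini-Hochberg adjustment gave an adjusted p of 0.0537. No stretch of 50 bases of Cyp2c44 occurred in another gene, unlike Cyp2c50 and Cyp2c54. Leaving out control liver 7.1 raised the log2 fold changes of Cyp2c44 and Cyp2c50 to 1.68 and 2.12, with adjusted p of 0.0318 and 0.0331 by the same edgeR test. Neither gene passed when any 1 of the other five livers was left out, with adjusted p from 0.0728 to 0.168 for Cyp2c44 and from 0.077 to 0.164 for Cyp2c50, and without control liver 7.2 their log2 fold changes were 1.11 and 1.31.

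Cyp2c29, a major P450 of mouse liver that forms arachidonic acid epoxides, was the only one of the other 9 members past the threshold. It rose from 141, 101 and 75.9 normalized CPM in sgCtrl livers 5.1, 7.1 and 7.2 to 244, 217 and 203 in sgPrdx2 livers 1.1, 1.3 and 3.2, a log2 fold change of 1.06 ± 0.23 (SE, n = 3 per group), or 2.09-fold (edgeR quasi-likelihood test, Benjamini-Hochberg adjusted p = 0.0491). Here liver 5.1 was the highest control and liver 7.2 the lowest. The call stood close to the threshold, and leaving out any 1 of the 6 livers ended it (edgeR, adjusted p from 0.0577 to 0.159). It was also lost with upper-quartile (0.0503), total-count (0.0715), housekeeping (0.25) and hepatocyte-marker scaling (0.613), and Cyp2c29 was called in 4 of 14 alternatives.

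Cyp2c37, which hydroxylates arachidonic acid, had 130, 76.2 and 46.7 normalized CPM in sgCtrl livers 5.1, 7.1 and 7.2 and 275, 183 and 157 in sgPrdx2 livers 1.1, 1.3 and 3.2. The groups did not overlap, but the log2 fold change of 1.28 ± 0.37 (SE, n = 3 per group) missed the threshold (edgeR quasi-likelihood test, Benjamini-Hochberg adjusted p = 0.0933). Cyp2c38 had 104, 35.2 and 30.7 normalized CPM in sgCtrl livers and 66.2, 58.0 and 62.0 in sgPrdx2 livers. For Cyp2c38 control liver 5.1 was above all sgPrdx2 livers and the other two controls were below them, with a log2 fold change of 0.14 ± 0.43 (SE; edgeR, adjusted p = 0.862). Cyp2c39, similar to it in sequence and known as a hydroxylase of retinoic acid, showed the same order of control livers at a lower level, with 5.46, 2.34 and 1.98 normalized CPM in sgCtrl and 3.71, 3.33 and 2.70 in sgPrdx2 livers. The log2 fold change of Cyp2c39 was 0.00 ± 0.38 (SE; edgeR, adjusted p = 0.998).

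Cyp2c70, the enzyme that makes muricholic acids of the mouse bile acid pool, had 138, 194 and 253 normalized CPM in sgCtrl livers 5.1, 7.1 and 7.2 and 259, 257 and 309 in sgPrdx2 livers 1.1, 1.3 and 3.2. The groups just failed to overlap, at 253 against 257, and control liver 7.2, the lowest for Cyp2c29, was here the highest. The log2 fold change was 0.50 ± 0.22 (SE, n = 3 per group; edgeR quasi-likelihood test, Benjamini-Hochberg adjusted p = 0.217). Cyp2c55, known from gut and as a CAR and PXR target, had 4.48, 5.89 and 5.80 normalized CPM in sgCtrl and 5.26, 5.66 and 20.7 in sgPrdx2 livers. Only sgPrdx2 liver 3.2 stood apart, and the log2 fold change of 0.96 ± 0.51 (SE; edgeR, adjusted p = 0.28) was 0.03 without this liver. Cyp2c40, a hydroxylase of arachidonic acid, was near the low end, with 71, 14 and 51 counts in sgCtrl and 24, 37 and 22 counts in sgPrdx2 livers, and was the 1 member with a negative log2 fold change, -0.60 ± 0.52 (SE; edgeR, adjusted p = 0.497). The log2 fold change of Cyp2c40 was -0.028 without control liver 5.1 and -1.02 without control liver 7.1.

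**Figure D2:**
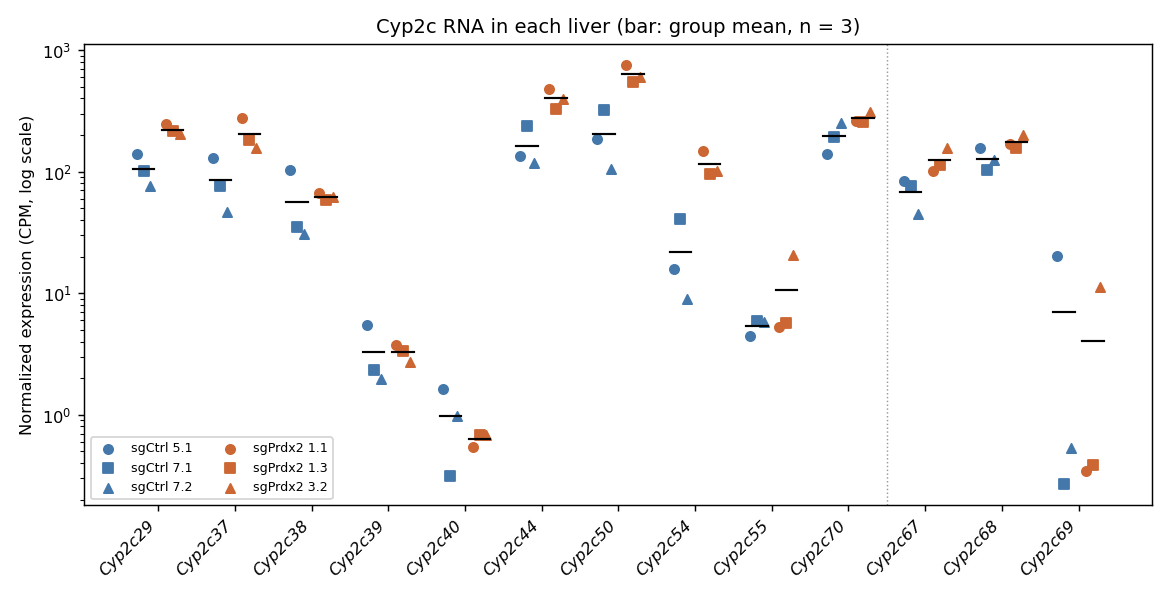
Normalized CPM (log axis) of the 10 members and, right of the dotted line, of 3 other Cyp2c genes in each liver, with sgCtrl in blue and sgPrdx2 in orange. Points are livers and horizontal bars group means (n = 3). The groups stand apart for the members Cyp2c29, Cyp2c37, Cyp2c44, Cyp2c50, Cyp2c54 and Cyp2c70 and, of the 3 other genes, for Cyp2c67.

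Counted over the family, 9 of the 10 members had a log2 fold change above 0 (8 of 9 without Cyp2c54), against 48.3% of all genes tested. Cyp2c39 was among them at only 0.002. Under the alternatives from 5 to 9 of the 10 were above 0, with 5 under scaling to hepatocyte markers. For 6 of 10 every sgPrdx2 liver was above every sgCtrl liver (5 of 9 without Cyp2c54), against 16.7% of all genes, and for 0 members was every sgPrdx2 liver below, against 17.5%. Every sgPrdx2 liver was also above every sgCtrl liver for 22 of 35 other P450s of families 1 to 3 and 22 of 24 hepatocyte markers. It was below for 1 of the 35 and 0 of the 24. In these lists 27 of 35 and 24 of 24 genes had a log2 fold change above 0, so both traits were not particular to Cyp2c. Of the 9 members other than Cyp2c54, 1 was called higher, against 1.79% of all genes, and 0 lower, against 1.54% (the edgeR quasi-likelihood test and Benjamini-Hochberg adjustment at 0.05). At an unadjusted p under 0.05, 4 of the 9 were higher, against 13% of all genes, and 4 of the 9 had a log2 fold change of at least 1, against 2.74%. By the same adjusted test 6 of the 35 other P450s and 10 of the 24 hepatocyte markers were called higher and 0 lower. Their log2 fold changes ran from -2.50 to 1.72 (median 0.73) and from 0.32 to 1.60 (median 0.84). Calls and differences of this size were thus not particular to Cyp2c. With DESeq2 4 of the 9 were called higher, namely Cyp2c29, Cyp2c37, Cyp2c44 and Cyp2c50, against 7.63% of the genes it tested. The median log2 fold change was 1.01 over the 10 members and 0.96 without Cyp2c54, and -0.02 over all genes, with a 10th percentile of -0.59 and a 90th of 0.59. The counts over members are of genes of 1 family that share libraries, position and sequence, chosen with Cyp2c54 in view.

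**Figure D3:**
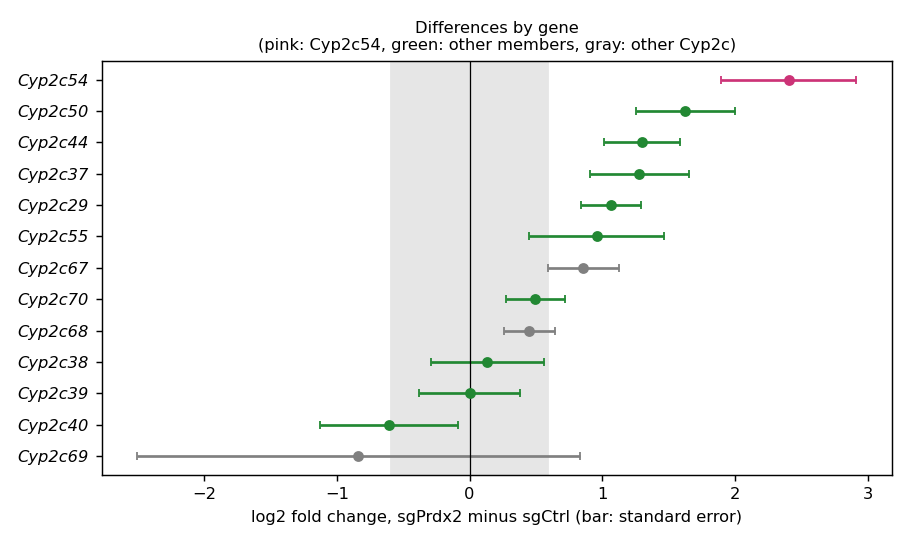
Log2 fold change (sgPrdx2 minus sgCtrl, TMM-normalized counts) of each member and of 3 other Cyp2c genes, with standard errors (n = 3 per group). The gray band runs from the 10th to the 90th percentile of all genes tested, -0.59 to 0.59, and Cyp2c54, in pink, was noticed for its rise.

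Markers of liver cell types were compared as well, since their summed levels also differed between the groups, upward for hepatocytes and downward for the other cell types. Over all genes tested 1.79% were called higher and 1.54% lower, the shares beside which the calls in each list stand. Of 24 hepatocyte markers tested, 10 were called higher and 0 lower, with a median log2 fold change of 0.84, and their summed level was 111694 to 127029 normalized CPM in sgCtrl livers and 193262 to 263205 in sgPrdx2 livers. Albumin (Alb), the main hepatocyte product, took 6.61 to 7.01% of all counts in sgCtrl and 9.28 to 11.3% in sgPrdx2 livers, with a log2 fold change of 0.97 ± 0.20 (SE; edgeR quasi-likelihood test, Benjamini-Hochberg adjusted p = 0.0472). Of 19 macrophage markers 3 were lower and 0 higher, with summed levels of 6615 to 7834 normalized CPM in sgCtrl and 4685 to 5769 in sgPrdx2 livers. Of 14 stellate cell and myofibroblast markers 1 was lower, with sums of 2464 to 2822 against 1801 to 1870 normalized CPM, of 11 endothelial markers 1 was lower (605 to 620 against 512 to 558), and of 11 cholangiocyte and progenitor markers 1 was lower (1747 to 1976 against 1321 to 1498), with Spp1 in both this and the macrophage list. Among 15 lymphocyte and neutrophil markers 1 was lower, with sums of 118 to 128 against 80.7 to 104 normalized CPM. In whole livers, more hepatocytes and more RNA per hepatocyte cannot be told apart.

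Counts were also scaled to the summed hepatocyte markers in place of TMM. Alb weighed most in this sum, with 59259 of 111694 normalized CPM in sgCtrl liver 5.1 and 127717 of 230626 in sgPrdx2 liver 1.1. With this scaling the median of all genes moved to -0.91 and that of the 10 members to 0.06. This scaling shifts all genes of a library alike, so the distance between these medians (0.98) was nearly fixed by its construction. On this scale Cyp2c54 had a log2 fold change of 1.52, Cyp2c50 of 0.73, Cyp2c44 of 0.40, Cyp2c37 of 0.36 and Cyp2c29 of 0.15, whereas Cyp2c55 (-0.02), Cyp2c70 (-0.40), Cyp2c38 (-0.82), Cyp2c39 (-0.92) and Cyp2c40 (-1.52) were below 0. Cyp2c54, Cyp2c50, Cyp2c44, Cyp2c37 and Cyp2c29 were thus positive under each of the 14 alternatives run, these scalings among them, and the other 5 were not. Relative to hepatocyte markers, Cyp2c40 passed the threshold downward (edgeR quasi-likelihood test, Benjamini-Hochberg adjusted p = 0.0244) and no other of the 9 did in either direction, against 74.4% of all genes called lower and 0.258% called higher on this scale, with adjusted p of 0.0657 for Cyp2c50 and 0.613 for Cyp2c29.

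The defining markers of the other cell types were present in both groups. The macrophage gene Adgre1 had 60.6 to 79.0 normalized CPM in sgCtrl and 28.8 to 46.6 in sgPrdx2 livers (edgeR quasi-likelihood test, Benjamini-Hochberg adjusted p = 0.069), and the leukocyte gene Ptprc had 58.6 to 71.1 against 26.7 to 44.4 normalized CPM (adjusted p = 0.0555). The smooth muscle actin gene Acta2 had 19.1 to 41.1 against 7.36 to 13.8 normalized CPM (adjusted p = 0.0584), and the endothelial gene Pecam1 fell, with 32.3 to 35.2 against 15.8 to 21.7 normalized CPM (adjusted p = 0.0423). The cholangiocyte gene Krt19 had 32.3 to 94.2 against 27.8 to 44.3 normalized CPM (adjusted p = 0.379), with its highest level in control liver 5.1. The part of cell makeup in the Cyp2c differences was not tested. The scaling to hepatocyte markers is no such test, since it cannot tell the number of hepatocytes from the RNA per hepatocyte.

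The members together had 861, 1016 and 645 normalized CPM in sgCtrl livers 5.1, 7.1 and 7.2 and 2232, 1697 and 1850 in sgPrdx2 livers 1.1, 1.3 and 3.2. The means were 841 ± 186 and 1926 ± 276 (SD, n = 3), a ratio of 2.29, and of 2.21 without Cyp2c54. In raw counts the 10 members took 0.0726 to 0.114% of each sgCtrl library and 0.149 to 0.197% of each sgPrdx2 library, with a 95% Wilson interval of 0.196 to 0.199% in liver 1.1, which covers counting error alone and is far narrower than the range between livers. The make-up of this pool differed as well. Cyp2c50 made up 21.7, 31.8 and 16.2% of member counts in sgCtrl livers and 33.7, 32.4 and 32.3% in sgPrdx2 livers, without overlap. Cyp2c54 held 1.84, 3.97 and 1.38% against 6.62, 5.60 and 5.51%. Cyp2c70 held 16.1, 19.1 and 39.2% against 11.6, 15.1 and 16.7%, with overlap, and in control liver 7.2 it was the most counted member. The shares of Cyp2c44, with means of 19.0% and 20.7%, Cyp2c29, with 12.7% and 11.5%, and Cyp2c37, with 9.96% and 10.5%, overlapped between the groups. Cyp2c38 held 12.0, 3.46 and 4.76% of member counts in sgCtrl and 2.96, 3.42 and 3.35% in sgPrdx2 livers, and Cyp2c39 held 0.634, 0.230 and 0.307% against 0.166, 0.196 and 0.146%, lower in every sgPrdx2 liver for both.

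**Figure D4:**
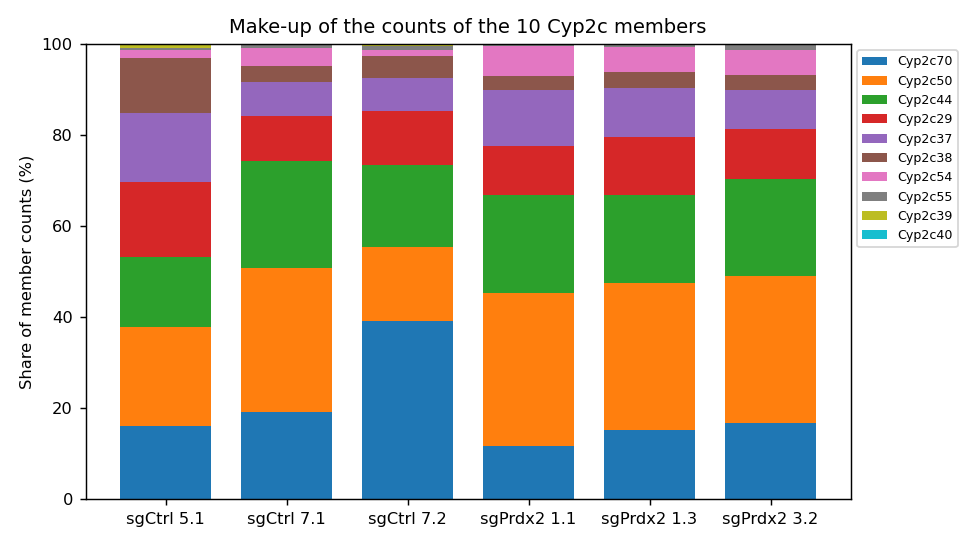
Share (%) of the counts of the 10 members taken by each member in each liver, stacked to 100. The share of Cyp2c50 lies between 32.3 and 33.7% in the 3 sgPrdx2 livers and between 16.2 and 31.8% in the sgCtrl livers, where Cyp2c70 reaches 39.2% in liver 7.2.

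To compare levels between genes, normalized CPM were divided by the length of the merged exons in kb. In sgCtrl livers the order of mean levels per kb was Cyp2c70 (98.4), Cyp2c44 (75.5), Cyp2c50 (70.2), Cyp2c37 (46.3), Cyp2c29 (34.6), Cyp2c38 (19.7), Cyp2c54 (12.1), Cyp2c55 (2.70), Cyp2c39 (1.79) and Cyp2c40 (0.475). Only Cyp2c54 and Cyp2c55, and Cyp2c39 and Cyp2c40, were neighbors in this order whose livers did not overlap. In sgPrdx2 livers the order was Cyp2c50 (217), Cyp2c44 (186), Cyp2c70 (139), Cyp2c37 (112), Cyp2c29 (72.2), Cyp2c54 (64.4), Cyp2c38 (21.6), Cyp2c55 (5.28), Cyp2c39 (1.79) and Cyp2c40 (0.312). There the neighbors from Cyp2c50 down to Cyp2c37 overlapped, as did Cyp2c29 and Cyp2c54, and the others did not. With the length of the principal coding transcript, chosen after seeing the data, Cyp2c54 again ranked 7 in sgCtrl and 6 in sgPrdx2 livers, but other places moved. In sgCtrl livers Cyp2c50 (113 normalized CPM per kb) passed Cyp2c44 (85.0) and stood just below Cyp2c70 (114), and Cyp2c29 (59.3) passed Cyp2c37 (46.3). In sgPrdx2 livers Cyp2c29 (124) passed Cyp2c37 (112), and Cyp2c50 (349) no longer overlapped Cyp2c44 (209).

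The members did not vary alike from mouse to mouse. Over the 6 livers, deviations of log2 CPM from the own group mean were compared by Pearson's r, as a description over libraries that the genes share. Cyp2c29, Cyp2c37, Cyp2c38 and Cyp2c39 went together, with r from 0.83 to 0.98 over their 6 pairs. In each of these 4 genes liver 5.1 was the highest control and liver 7.2 the lowest. Cyp2c44, Cyp2c50 and Cyp2c54 went together as well, with r from 0.92 to 0.99 over 3 pairs, and had liver 7.1 highest and liver 7.2 lowest among the controls. Between these sets, which were drawn up after their values were seen, r ranged from -0.17 to 0.53 over 12 pairs. Cyp2c70 went against the first set, with r from -0.97 to -0.88, and from -0.43 to -0.09 with the second.

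Genes that share sequence were not always in the same set. Cyp2c37 shared 21.1% of its stretches with Cyp2c50 and 15.7% with Cyp2c54. It varied with Cyp2c29 (r = 0.98) more than with Cyp2c50 (r = 0.53) or Cyp2c54 (r = 0.43). Whether reads that fit several genes bear on these r was not tested. Cyp2c44 shared no stretch with any gene and varied with Cyp2c54 (r = 0.96). Together Cyp2c29, Cyp2c37, Cyp2c38 and Cyp2c39 had 380, 215 and 155 normalized CPM in sgCtrl livers 5.1, 7.1 and 7.2 and 589, 461 and 424 in sgPrdx2 livers 1.1, 1.3 and 3.2. Cyp2c44, Cyp2c50 and Cyp2c54 together had 336, 602 and 230 normalized CPM in sgCtrl livers and 1378, 973 and 1096 in sgPrdx2 livers. In both sums the groups did not overlap.

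**Figure D5:**
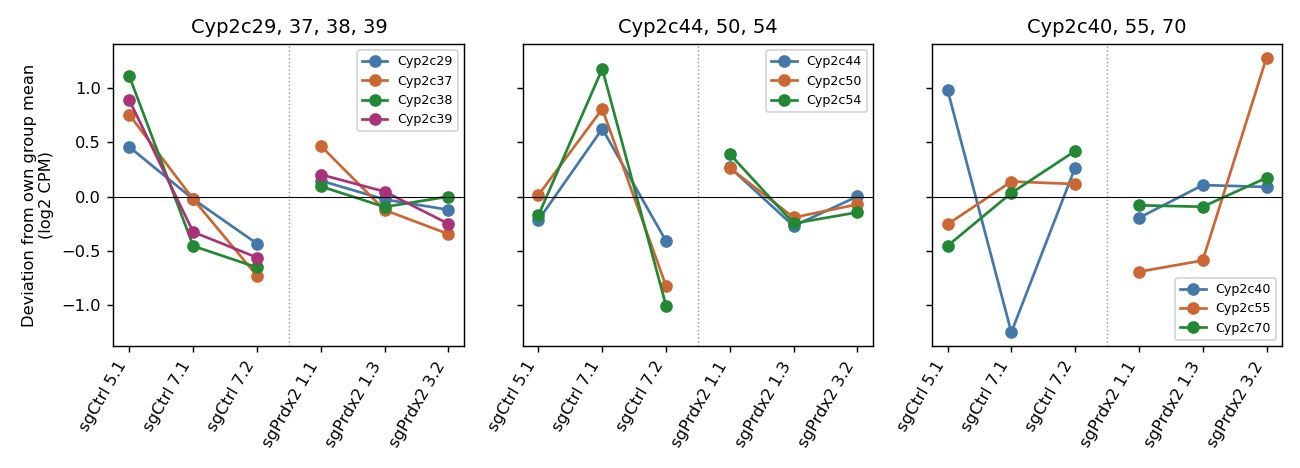
Deviation of each member's log2 CPM from the mean of its own group in each liver, in 3 panels of genes, with lines that join the livers of a group only to guide the eye. Cyp2c29, Cyp2c37, Cyp2c38 and Cyp2c39 are highest in control liver 5.1, whereas Cyp2c44, Cyp2c50 and Cyp2c54 are highest in control liver 7.1.

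The spread within groups was wide for this family. The biological coefficient of variation had a median of 0.33 over the members, from 0.212 for Cyp2c70 and Cyp2c29 to 0.431 for Cyp2c40, against a median of 0.191 over all genes. Between the highest and lowest sgCtrl liver the members differed by 1.32-fold (Cyp2c55) to 5.21-fold (Cyp2c40), and in sgPrdx2 livers by 1.14-fold (Cyp2c38) to 3.93-fold (Cyp2c55). Cyp2c55 apart, each member spread more over the sgCtrl than over the sgPrdx2 livers, whereas the median over 14121 genes of at least 1 CPM was 1.23-fold in sgCtrl and 1.35-fold in sgPrdx2 livers. These traits were not particular to Cyp2c. Cyp2f2 had a coefficient of 0.459, with 102 to 439 normalized CPM in sgCtrl and 486 to 775 in sgPrdx2 livers. Nr1i3 had 0.376, with 121 to 422 against 294 to 494 normalized CPM. Alb went the other way, at 0.169, with 58815 to 62569 against 97610 to 128017 normalized CPM.

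Of 6 other Cyp2c genes in the table, 3 had enough counts for the test. Cyp2c67 had 84.0, 75.7 and 44.5 normalized CPM in sgCtrl and 101, 113 and 156 in sgPrdx2 livers, without overlap (log2 fold change 0.86 ± 0.26, SE; edgeR quasi-likelihood test, Benjamini-Hochberg adjusted p = 0.106). Cyp2c68 had 156, 102 and 125 against 167, 155 and 202 normalized CPM, and the groups overlapped (0.45 ± 0.19; edgeR, adjusted p = 0.192). Cyp2c69, a female-biased gene, had 887 counts in sgCtrl liver 5.1 and 369 in sgPrdx2 liver 3.2 but only 12 to 28 counts in the other four livers. Its log2 fold change of -0.84 ± 1.67 (SE; edgeR, adjusted p = 0.78) was smaller than its error. The 3 genes share between 43.3% and 54.8% of their 50-base stretches with other genes and are uncertain. Cyp2c65 reached 28 counts in sgCtrl liver 5.1 and at most 5 elsewhere, Cyp2c66 had 1 count in all 6 libraries, and the pseudogene Cyp2c53-ps had at most 2 counts in a liver, so none of these 3 was tested. The annotated spans of Cyp2c53-ps and Cyp2c29 overlap on the plus strand.

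Among the other P450s of the same broad families, 6 of 35 tested genes were called higher (1.79% of all genes) and 0 lower (1.54%), with a median log2 fold change of 0.73. The epoxygenase gene Cyp2j9 rose, with 4.28 to 4.85 normalized CPM in sgCtrl and 9.82 to 13.3 in sgPrdx2 livers (log2 fold change 1.29 ± 0.17, SE; edgeR quasi-likelihood test, Benjamini-Hochberg adjusted p = 0.0313). Cyp2e1, the ethanol-oxidizing P450, rose by 0.96 ± 0.18 on the log2 scale (adjusted p = 0.0409, same test), Cyp2d26 by 0.98 ± 0.18 and Cyp3a59 by 1.13 ± 0.21. Of the 23 tested makers and breakers of arachidonic acid epoxides outside Cyp2c, 3 were higher (Cyp2j9, Cyp4f15 and Cyp4a32) and 0 lower, against the same shares of all genes, and their median was 0.04.

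Of 15 genes that supply P450s with electrons and heme, 0 were higher (1.79% of all genes) and 1 was lower (1.54%), with a median log2 fold change of 0.38. The lower gene was Cyb5r1, with a log2 fold change of -0.93 ± 0.20 (SE; edgeR quasi-likelihood test, Benjamini-Hochberg adjusted p = 0.0491). The reductase gene Por had 489, 193 and 207 normalized CPM in sgCtrl livers 5.1, 7.1 and 7.2 and 302, 306 and 475 in sgPrdx2 livers, with overlap (log2 fold change 0.28 ± 0.37; edgeR, adjusted p = 0.666). Its highest control was liver 5.1, the one that also stood highest for Cyp2c38 and Cyp2c39.

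Of 20 transcription factors known for Cyp2c genes, 0 passed the test in either direction, against 3.33% of all genes, and 0.32 was their median log2 fold change. The smallest p in the list belonged to the bile acid receptor Nr1h4 (0.59 ± 0.15, SE) and to Cebpa (0.67 ± 0.18), with adjusted p of 0.0668 and 0.0772 by the edgeR quasi-likelihood test and Benjamini-Hochberg adjustment. Nr1i3 (CAR) had 422, 183 and 121 normalized CPM in sgCtrl livers 5.1, 7.1 and 7.2 and 494, 294 and 476 in sgPrdx2 livers 1.1, 1.3 and 3.2, with overlap (0.80 ± 0.44; edgeR, adjusted p = 0.294). In the controls Nr1i3 had the same order of livers as Cyp2c29. The deviations of Nr1i3 from its group means followed those of Cyp2c29 (r = 0.89), Cyp2c37 (r = 0.85), Cyp2c38 (r = 0.92) and Cyp2c39 (r = 0.85) over the 6 livers, less those of Cyp2c54 (r = 0.25) and Cyp2c44 (r = 0.15), and ran against Cyp2c70 (r = -0.79). Nr1i2 (PXR) had 56.0 to 85.2 normalized CPM in sgCtrl and 68.0 to 89.2 in sgPrdx2 livers (edgeR, adjusted p = 0.532). Hnf4a had 384 to 405 against 433 to 527 normalized CPM, without overlap (log2 fold change 0.30 ± 0.14; edgeR, adjusted p = 0.229), and its deviations bore little relation to those of Cyp2c54 (r = 0.21). High r were not particular to Nr1i3. With Cyp2c29, Cyp2c37, Cyp2c38 and Cyp2c39, r ran from 0.50 to 0.85 for Nr1i2, from 0.50 to 0.88 for Por and from 0.63 to 0.82 for Cyp2e1. With Cyp2c44, Cyp2c50 and Cyp2c54, r ran from 0.54 to 0.76 for Cyp2e1, from 0.65 to 0.84 for Rxra and from 0.14 to 0.21 for Hnf4a. For the P450 gene Cyp2f2 it ran from 0.89 to 0.96, beside 0.92 to 0.99 among these 3 members themselves. High r with this set were thus also found outside Cyp2c. These r describe 6 shared libraries and carry no test.

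Of 18 CAR and PXR targets outside Cyp2c, 0 were higher (1.79% of all genes) and 1 lower (1.54%), with a median log2 fold change of 0.52. The lower gene was the transporter Abcc4, at -1.91 ± 0.40 on the log2 scale (SE; edgeR quasi-likelihood test, Benjamini-Hochberg adjusted p = 0.0486). Beside Cyp2c70, 2 of 15 bile acid genes were higher and 0 lower, with a median of 0.71, namely the bile acid ligase gene Slc27a5 (1.49 ± 0.21; edgeR, adjusted p = 0.0342) and the racemase gene Amacr (0.82 ± 0.14; adjusted p = 0.0392). Along the axis of the lobule, 1 of 20 pericentral genes was higher, Cyp2e1, and 1 of 20 periportal genes, Hsd17b6 (1.79 ± 0.28; edgeR, adjusted p = 0.0358), with 0 lower in both lists and medians of 0.52 and 0.97. All 8 general housekeeping genes stayed short of the threshold, and their median was -0.01.

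The genes outside Cyp2c whose pattern was most like that of Cyp2c54 were sought among the 9258 genes that averaged 10 CPM or more by Pearson's r of log2 CPM over the 6 livers, group difference included. They were Crp (r = 0.9955), an acute phase protein, Aqp9 (r = 0.9953), a glycerol channel of hepatocytes, and Mgst1 (r = 0.9906), a microsomal glutathione transferase. Their log2 fold changes were 0.61 ± 0.15, 0.77 ± 0.17 and 0.68 ± 0.17 (SE, n = 3 per group; edgeR quasi-likelihood test, Benjamini-Hochberg adjusted p = 0.0678, 0.0555 and 0.0708). Each had control liver 7.1 highest and sgPrdx2 liver 1.1 highest, as Cyp2c54 did, over a much smaller range.

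Promoter sequences were at hand for 8 of the 10 members, from RefSeq on GRCm38.p6, and are shown for genes of both sets that varied together and for Cyp2c70. Each runs from 130 bases before to 20 bases after the start of transcription, and capitals mark the letters TATAAA of a TATA box and the letters CAAAGTC of an HNF4 core, on either strand.
Cyp2c29: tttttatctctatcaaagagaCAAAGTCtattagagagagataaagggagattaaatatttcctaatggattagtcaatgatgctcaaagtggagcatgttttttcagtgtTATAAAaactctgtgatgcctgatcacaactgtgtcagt
Cyp2c37: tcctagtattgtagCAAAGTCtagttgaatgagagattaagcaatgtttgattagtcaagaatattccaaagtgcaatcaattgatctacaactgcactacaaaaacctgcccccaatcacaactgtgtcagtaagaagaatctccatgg
Cyp2c50: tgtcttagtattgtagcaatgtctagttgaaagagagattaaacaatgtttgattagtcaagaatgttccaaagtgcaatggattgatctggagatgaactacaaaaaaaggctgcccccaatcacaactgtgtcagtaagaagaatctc
Cyp2c38: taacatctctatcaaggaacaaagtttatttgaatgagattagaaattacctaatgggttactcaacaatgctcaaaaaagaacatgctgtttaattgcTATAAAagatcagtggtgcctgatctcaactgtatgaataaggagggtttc
Cyp2c70: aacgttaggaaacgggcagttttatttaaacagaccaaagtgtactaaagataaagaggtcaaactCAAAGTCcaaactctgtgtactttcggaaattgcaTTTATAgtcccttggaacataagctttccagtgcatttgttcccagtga

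On GRCm38.p6 these windows are chr19:39286955-39287104 (plus strand) for Cyp2c29, chr19:39992294-39992443 (plus strand) for Cyp2c37, chr19:40089549-40089698 (plus strand) for Cyp2c50, chr19:39463056-39463205 (minus strand) for Cyp2c38 and chr19:40187267-40187416 (minus strand) for Cyp2c70. In windows of 250 bases before to 50 after the start, searched on both strands, TATAAA was found in 6 of the 8 members with a promoter, against 13.6% of 32851 promoters, and CAAAGTC in 5 of the 8, against 4.44%. The TATAAA match began at -31 in Cyp2c38, -29 in Cyp2c55 and Cyp2c70, -19 in Cyp2c29 and -3 in Cyp2c39. In Cyp2c40 it began at 41, after the start, so not every match lay where a TATA box would. The members with CAAAGTC were Cyp2c29, Cyp2c37, Cyp2c39, Cyp2c40 and Cyp2c70, and Cyp2c37 held it at 2 places. Cyp2c50 held neither TATAAA nor CAAAGTC in its window. TGTTTAC, a forkhead motif, was found in Cyp2c38 and Cyp2c39, against 3.65% of all promoters, AGGTCA, a nuclear receptor half-site, in Cyp2c29 and Cyp2c70, against 16.3%, and GTTAAT, an HNF1 half-site, in Cyp2c40, against 7.1%. The promoters of the cluster descend from common copies, no match of 1 motif overlapped a match of another in these members, and a match is a description of the letters alone.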

How the data were processed

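RNA-Seq of 6 mouse livers (3 sgCtrl, 3 sgPrdx2) was analysed, with groups taken from the sample labels, which name no batch. The authors deposited counts of reads per gene, as whole numbers without normalization. The submitters' processing notes name HISAT2, HTSeq, DESeq2 and the build GRCm38, without versions, and read length and strandedness are not given in the sources used here. The authors' table of their own DESeq2 comparison (fold changes and p-values) was not used.

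Counts were fitted in R 4.3.3 with edgeR 4.0.16: genes kept by filterByExpr (minimum count 10), TMM normalization, glmQLFit and glmQLFTest over 17032 genes and all 6 livers without covariates, and Benjamini-Hochberg adjustment over all genes tested, called at an adjusted p under 0.05. The standard error of a log2 fold change was obtained as its size over the root of the F statistic. p-values measure the spread between 3 mice per group. No 2 libraries agreed within sampling noise (the smallest chi-square per degree of freedom was 34.7). The fits were tested on simulated data. Their spread followed the trend over all genes, so they do not measure how often differences are found in genes as variable as these members. The alternatives were RLE, upper-quartile and total-count scaling, scaling to 8 housekeeping genes or to hepatocyte markers, other filters, DESeq2 1.42.0, adjusted p under 0.01, leaving out each liver, and stretches of 75 and 100 bases.

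The members and gene lists were chosen with earlier results of these data known. Named were all Cyp2c genes, Prdx2, up to 4 called genes with the smallest p in each list (the 2 with the smallest p where none was called), the defining cell type markers, Hnf4a, Nr1i2, Nr1i3 and Por, and the 3 genes most correlated with Cyp2c54. Cyp2f2 and Rxra were named beside them for comparison of r or spread, after their values were seen. Exons, coding sequences and stretches came from GENCODE M21 transcripts and promoters from RefSeq, which need not be the annotation behind the counts, and were handled with Python 3.11.15 and Biopython 1.88. Of the 10 member symbols, 9 matched the annotation directly and Cyp2c44 through its synonym Cyp2c23.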

Additional observations from a re-analysis of the deposited data

How the results depend on the processing

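The log2 fold changes of Cyp2c29, Cyp2c37, Cyp2c44, Cyp2c50 and Cyp2c54 were positive under each of the 14 alternatives run, and that of Cyp2c54 ranged from 1.52 to 3.22. The number of the other 9 members called was 1, and it was 0 with upper-quartile scaling, with housekeeping scaling and at adjusted p under 0.01, 2 with total counts only (Cyp2c44 and Cyp2c50, not Cyp2c29), 1 with hepatocyte scaling (Cyp2c40, lower), 4 without a filter, 4 with DESeq2 and 0 to 2 when 1 liver was left out. At edgeR's unadjusted p under 0.05, 4 of the 9 passed under upper-quartile and under housekeeping scaling. All genes called numbered 567, against 3247 with total counts only, 0 with housekeeping scaling (2425 at an unadjusted p under 0.05), 12708 with hepatocyte scaling, 1128 without a filter, 2052 with DESeq2 and 0 to 619 when 1 liver was left out. No gene was called without sgCtrl liver 5.1 or 7.2 or sgPrdx2 liver 1.1 or 1.3 (3114 to 3993 at an unadjusted p under 0.05), whereas 394 genes were called without sgCtrl 7.1 and 619 without sgPrdx2 3.2. Genes of the lists called numbered 67, 0, 133, 71 and 104 under total counts, housekeeping scaling, hepatocyte scaling, no filter and DESeq2, and 0 to 26 with 1 liver left out. The log2 ratio of summed Cyp2c levels was 0.82 with total counts only, where the median of all genes was -0.39, and 0.29 with hepatocyte scaling, where the members' median was 0.063. For Prdx2 the log2 fold change turned to -0.0046 with upper-quartile scaling, -0.37 with total counts, -0.10 with housekeeping scaling, -0.90 with hepatocyte scaling and -0.0050 without a filter, and ran from -0.17 to 0.13 with 1 liver left out (-0.052 without sgCtrl 5.1 and -0.0081 without sgCtrl 7.1). For Cyp2c38 it turned to -0.25 with total counts, -0.00062 with housekeeping scaling and -0.82 with hepatocyte scaling, and ran from -0.16 to 0.91 with 1 liver left out (-0.11 without sgCtrl 7.1). For Cyp2c39 it turned to -0.012 with upper-quartile scaling, -0.37 with total counts, -0.10 with housekeeping scaling, -0.92 with hepatocyte scaling, -0.0033 without a filter and -0.0010 at 10 counts in every liver, and ran from -0.26 to 0.59 with 1 liver left out (-0.19 without sgCtrl 7.1 and -0.10 without sgPrdx2 1.1). With hepatocyte scaling Cyp2c55 turned to -0.025 and Cyp2c70 to -0.40. The share of Cyp2c54 stretches found in other genes was 14.1% at 75 bases and 7.59% at 100 bases. Apart from the shift of all genes that a scaling brings, the cause of these changes was not tested. No paired analysis was possible because the groups share no mouse number. At these depths Cyp2c66, Cyp2c65 and Cyp2c53-ps were too low to compare.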

Other observations

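Genes that differ between the sexes in mouse liver were measured beside the female-biased Cyp2c genes. Of 16 male-biased genes that depend on pulsatile growth hormone, 0 were called in either direction (the edgeR quasi-likelihood test and Benjamini-Hochberg adjustment), against 3.33% of all genes. Of the 16, 15 had a log2 fold change above 0, against 48.3% of all genes, and the median was 1.12. So had 24 of 24 hepatocyte markers (median 0.84) and 27 of 35 other P450s (median 0.73), and the trait was not particular to male-biased genes. Those with the smallest p were Igf1, with 198 to 346 normalized CPM in sgCtrl and 424 to 552 in sgPrdx2 livers (edgeR, adjusted p = 0.0709), and Serpina1e, with 36.7, 203 and 52.2 normalized CPM in sgCtrl livers 5.1, 7.1 and 7.2 and 355, 320 and 891 in sgPrdx2 livers 1.1, 1.3 and 3.2 (edgeR, adjusted p = 0.0911). Control liver 5.1 was the lowest for Serpina1e and sgPrdx2 liver 3.2 the highest, while these same livers held the high counts of Cyp2c69. Of 19 tested female-biased genes 0 were called, with a median log2 fold change of 0.11. Cyp2b13 had 5.28 to 13.3 normalized CPM in sgCtrl and 12.7 to 38.4 in sgPrdx2 livers (edgeR, adjusted p = 0.113), and Cyp3a16 had 0.731 to 1.22 against 1.28 to 1.93 normalized CPM (edgeR, adjusted p = 0.131).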
